A study of Mus musculus with 4 samples.

Results

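Keratins are the intermediate filament proteins of epithelial cells, and the data described here are the transcript levels of 10 keratin genes in mouse gastric organoids. The genes were taken by symbol: Krt7, Krt8, Krt18, Krt19, Krt20 and Krt23 of simple epithelia, and Krt4, Krt13, Krt5 and Krt17 of stratified epithelia. They are 10 of the 53 keratin genes, pseudogenes left out, among 45777 genes in the files. Organoids labelled Smad4 Knockout (lines CPS1 and CPS4) carry knockouts of Cdh1, Trp53 and Smad4, and organoids labelled Control (lines CPE and CPG) carry knockouts of Cdh1 and Trp53, so loss of E-cadherin and p53 is shared by both groups. Each group had 2 libraries of total RNA, each from a separately named line, and before harvest every line was held for 2 days in a B27 and N2 medium that had neither serum nor L-WRN conditioned medium. The labels give neither strain nor age, nor whether the lines came from separate animals, so p-values measure only the spread between these 4 libraries. Organoids with intact Cdh1 and Trp53 were not analysed here.

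Type I (acidic) and type II (basic) keratins pair with each other, chain for chain, to build filaments, so an epithelial cell makes members of both types. Glandular epithelia use Krt8 (type II) with Krt18 (type I), joined by Krt7, Krt19 and Krt20, while stratified epithelia use Krt5 in the basal layer and, in mucosa such as the oesophagus and the forestomach, Krt4 with Krt13 in the layers above. The mouse stomach holds both kinds of lining, a squamous forestomach and a glandular body and antrum. Of the 10 members, 6 are type I and 4 are type II.

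All 25 type II keratin genes, together with Krt18, lie in a cluster on chromosome 15, and the other type I genes in a cluster on chromosome 11 (mm10, also called GRCm38). The members of each type descend from shared ancestors, and alike stretches decide whether a read can be assigned to 1 gene. In the GENCODE M21 transcripts, the coding sequence of Krt4 was 72.7% identical to that of Krt5 and 73.2% to that of Krt76, the closest keratin to it. None of the 50-base words of the Krt4 transcript occurred in a transcript of another gene, and the same held for Krt7, Krt19, Krt20, Krt23 and Krt13. Of the Krt8 words 26.9% also occurred in its pseudogene Krt8-ps, of the Krt5 words 8.52% occurred in Krt6a, Gm5478, Krt6b and 1 other gene, of the Krt17 words 3.99% occurred in 4 genes led by Krt14, Krt16 and Krt42, and of the Krt18 words 0.72% occurred in 2 other genes. Counts of these 4 members are uncertain to the extent that reads were shared.

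RefSeq start regions (GRCm38.p6) were listed for Krt5, Krt7, Krt8, Krt13, Krt18, Krt20 and Krt23, which is 7 of 10 members, and not for Krt4, Krt17 and Krt19. The 150 bases before the start site are printed for 3 abundant members (Krt8, Krt18 and Krt7) and for 2 low ones (Krt20 and Krt5), with capitals at matches to the motifs named after them.
Krt8: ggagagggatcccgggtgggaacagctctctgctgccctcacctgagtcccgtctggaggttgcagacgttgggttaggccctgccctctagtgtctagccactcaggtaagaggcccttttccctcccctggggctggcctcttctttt
Krt18: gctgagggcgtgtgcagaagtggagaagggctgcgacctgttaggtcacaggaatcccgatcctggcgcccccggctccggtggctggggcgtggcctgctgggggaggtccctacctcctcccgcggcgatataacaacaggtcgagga
Krt7: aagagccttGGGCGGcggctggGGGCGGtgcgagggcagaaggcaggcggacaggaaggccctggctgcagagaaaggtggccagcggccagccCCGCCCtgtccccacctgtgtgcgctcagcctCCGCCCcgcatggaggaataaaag
Krt20: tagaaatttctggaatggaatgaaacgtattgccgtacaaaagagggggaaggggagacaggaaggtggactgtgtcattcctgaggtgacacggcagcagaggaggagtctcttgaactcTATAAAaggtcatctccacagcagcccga
Krt5: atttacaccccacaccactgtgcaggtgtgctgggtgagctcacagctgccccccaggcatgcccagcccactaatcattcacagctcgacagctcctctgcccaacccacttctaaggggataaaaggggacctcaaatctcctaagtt
These windows are chr15:102004343-102004492 (minus) for Krt8, chr15:102028066-102028215 (plus) for Krt18, chr15:101412253-101412402 (plus) for Krt7, chr11:99438154-99438303 (minus) for Krt20 and chr15:101712906-101713055 (minus) for Krt5. The G and C content was 61.3% in the window of Krt8, 66.7% in that of Krt18 and 70.0% in that of Krt7, against 49.3% in that of Krt20 and 55.3% in that of Krt5. Each window was searched on both strands for 6 motifs, none of which contains another. The GC box GGGCGG occurs in 28.6% of 32851 windows of this length, and Krt7 held 4 of them. The TATA box, spelled TATAAA, occurs in 7.57% of windows and was found 29 bases before the start of Krt20. An AP-1 match, spelled TGANTCA, occurs in 4.24% of windows and was found in 1 of the 2 windows of Krt13, which are not printed. The other motifs had no match in the 8 windows of the 7 members. They were the CCAAT box, which occurs in 24.5% of all windows, the SMAD-type element spelled CAGACA, which occurs in 10.3%, and the SMAD palindrome, spelled GTCTAGAC, which occurs in 0.0731%. A match is a run of letters and no measurement of binding.

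Total counts were 85649781 and 96402585 in the Smad4 Knockout libraries, against 99845702 and 92334224 in the Control libraries. Smad4 was at 54.4 and 52.9 CPM (counts scaled by library size) in the Smad4 Knockout libraries, against 94.5 and 103.3 CPM in the Control libraries, so the transcript was lower but present in the knockouts (log2 fold change -0.88, adjusted p = 0.677 in edgeR and 2e-08 in DESeq2). Cdh1 had 30.6 and 44.1 CPM in the Smad4 Knockouts, against 30.7 and 26.02 CPM in the Controls. Trp53 had 5.43 and 4.69 CPM in the Smad4 Knockouts, against 4.87 and 6.98 CPM in the Controls. Markers of other cell types were near 0. The 8 fibroblast markers summed to 0.552 and 0.291 TPM (a level that also corrects for gene length) in the Smad4 Knockouts and to 0.655 and 1.04 TPM in the Controls, with Lum and Pdgfrb at 0 counts in all libraries, and the 3 that passed the filter on low counts (Col1a1, Col3a1 and Pdgfra) had log2 fold changes below 0. The 4 endothelial markers, mostly Kdr, summed to 1.46 and 0.884 TPM in the Smad4 Knockouts and to 1.59 and 1.58 TPM in the Controls, all 4 with a log2 fold change below 0. The 6 immune markers summed to 5.19 and 4.96 TPM in the Smad4 Knockouts and to 4.66 and 4.52 TPM in the Controls. Nearly all of that was Cd68, a lysosomal protein, at 5.10 and 4.82 TPM in the Smad4 Knockouts, against 4.49 and 4.30 TPM in the Controls, while Cd3e was at 0 counts. The part of these cell types in the results was not tested.

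The organoids carried a simple epithelial keratin set. Krt8, Krt18, Krt19 and Krt7 made up 97.9% and 97.5% of the TPM of the 10 members in the Smad4 Knockouts, against 98.4% and 98.6% in the Controls. The 10 members in turn took 99.4% and 99.3% of the TPM of all 53 keratin genes in the Smad4 Knockouts, and 99.5% and 99.3% in the Controls. Their sum was 10207 and 9910 TPM in the Smad4 Knockouts, against 9941 and 9519 TPM in the Controls. That was 1.02% and 0.991% of all TPM in the Smad4 Knockouts, against 0.994% and 0.952% in the Controls.

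**Figure D1:**
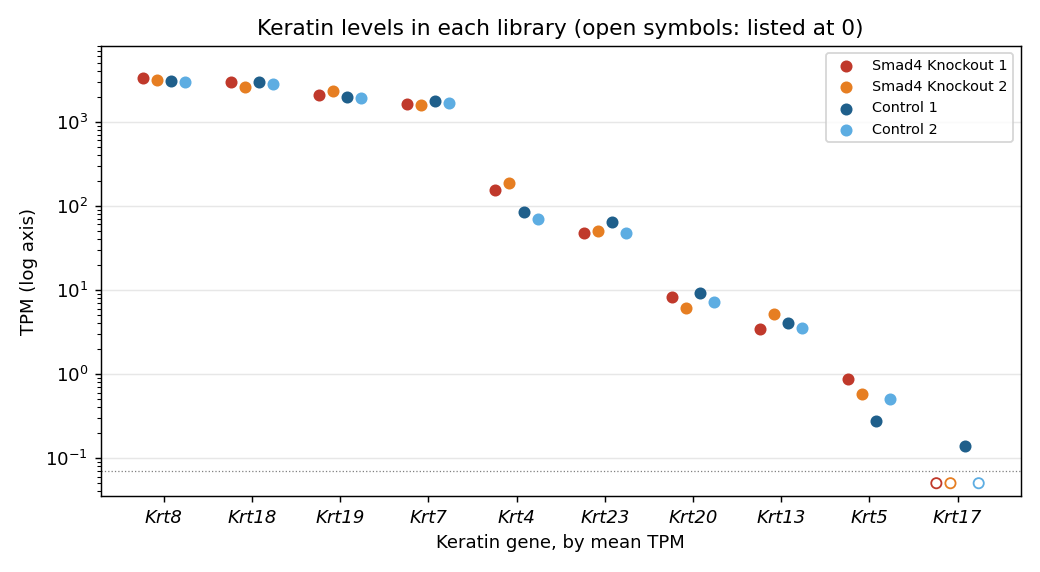
Level of the 10 keratins in TPM on a log axis, with 1 point per library, Smad4 Knockout libraries left of Control libraries. Krt8, Krt18, Krt19 and Krt7 lie at 1591 TPM or more in all 4 libraries, Krt4 lies higher in both Smad4 Knockout libraries (154 and 187 TPM) than in both Controls (84.7 and 70.1 TPM), and Krt17 is listed at 0 in 3 libraries.

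By mean TPM over the 4 libraries the order was Krt8 (3126), Krt18 (2828), Krt19 (2085), Krt7 (1667), Krt4 (124), Krt23 (52.5), Krt20 (7.69), Krt13 (4.06), Krt5 (0.555) and Krt17 (0.0345). The ranges of Krt8 and Krt18 overlapped, although Krt8 stood above Krt18 in 4 of 4 libraries. Every other neighbouring pair in this order had ranges over the 4 libraries that did not overlap. The widest steps were from Krt5 down to Krt17 (16.1-fold, with Krt17 at 0 in 3 libraries) and from Krt7 down to Krt4 (13.4-fold in mean TPM). Krt8 ranked 18 and 19 by TPM among all genes in the Smad4 Knockouts and 19 and 18 in the Controls. Krt4 ranked 788 and 625 in the Smad4 Knockouts, against 1484 and 1852 in the Controls.

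The question put to the members was whether their levels differ with the Smad4 knockout on the shared Cdh1 and Trp53 knockout background. Krt4 was the member that stood apart, at about 2.15-fold its Control level, while the abundant simple keratins lay within 1.12-fold of theirs. With edgeR's quasi-likelihood test adjusted over 18115 genes, 0 members were called higher and 0 lower, as for all genes, where 0.0% were called in each direction. At an unadjusted p under 0.05 there was 1 member, Krt4, higher in the knockouts, beside 6.36% of all genes in either direction, 3.33% higher and 3.04% lower. Krt4 was also the 1 member at least 2-fold higher with groups that did not overlap in CPM, beside 3.79% of all genes. DESeq2 also called Krt4 higher and no other member, where it called 0.53% of genes higher and 0.171% lower. Of the 10 members 9 passed the filter on low counts, with 5 log2 fold changes above 0 and 4 below. Their median was 0.06, against -0.00 for all genes tested.

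Krt4 (type II, gene ID 16682, chr15:101918535-101924735) is the suprabasal keratin of non-cornified stratified epithelia. It had 16602 and 24356 counts in the Smad4 Knockout libraries, against 11373 and 8330 in the Control libraries, which is 192 and 251 CPM in the Smad4 Knockouts, against 116 and 89.9 CPM in the Controls. In TPM it was at 154 and 187 in the Smad4 Knockouts, against 84.7 and 70.1 in the Controls. Both Smad4 Knockouts stood above both Controls, and a single knockout library was from 1.65 to 2.80 times a single Control library in CPM, while the 2 libraries of a group differed by 1.31-fold in the Smad4 Knockouts and by 1.29-fold in the Controls. The group means were 221.7 ± 41.9 CPM in the Smad4 Knockouts and 103.0 ± 18.6 CPM in the Controls (SD, n = 2 each). The log2 fold change was 1.11 (SE 0.18), with an unadjusted p of 0.000977 and an adjusted p of 0.677 in edgeR, and an adjusted p of 3.21e-06 in DESeq2. By edgeR's p it ranked 18 among all genes tested.

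The Krt4 difference had the same direction whichever library was left out, from 0.91 without Smad4 Knockout 2 to 1.30 without Control 1. Without Smad4 Knockout 1 it was 1.29 and passed the edgeR threshold (adjusted p = 0.0478), and without any other single library the adjusted p ranged from 0.752 to 1.0. The mitochondrial share of counts was 0.949% and 1.48% in the Smad4 Knockouts, against 0.937% and 1.18% in the Controls. The ribosomal RNA share was 0.243% and 0.562% in the Smad4 Knockouts, against 0.242% and 0.389% in the Controls. Both shares were highest in Smad4 Knockout 2, where Krt4 was highest too. Of the Controls, Control 2 had the higher shares and the lower Krt4 level. The part of these shares in the Krt4 level was not tested. In bulk RNA more cells with Krt4 and more Krt4 RNA per cell cannot be told apart.

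**Figure D2:**
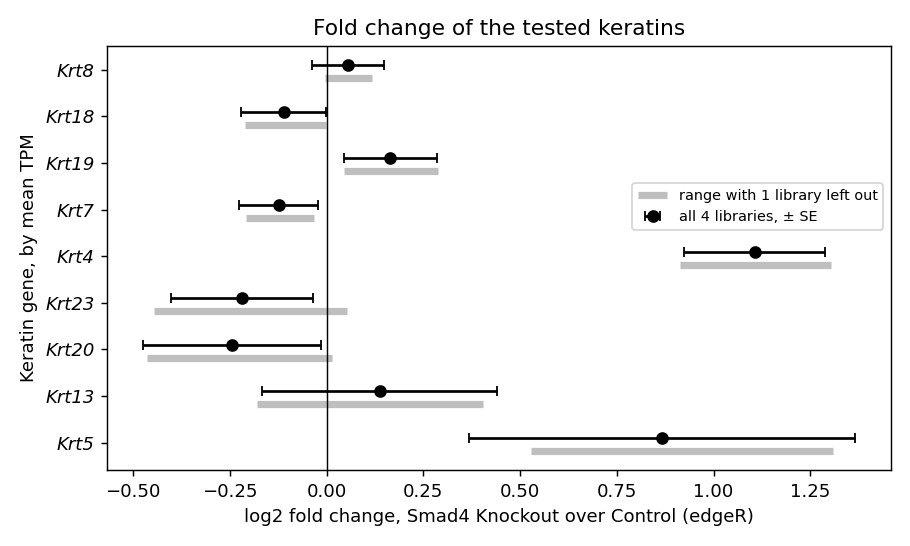
Log2 fold change of the 9 tested keratins, Smad4 Knockout over Control, as black points with SE from all 4 libraries and grey bars for the range when 1 library is left out. Krt4 sits at 1.11 with a range from 0.91 to 1.30, the simple keratins sit between -0.245 and 0.17, and the bars of Krt8, Krt23, Krt20 and Krt13 cross 0.

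Krt13 (type I, gene ID 16663, chr11:100117327-100121566) is the usual filament partner of Krt4, and its level lay far below. It had 280 and 476 counts in the Smad4 Knockouts, against 420 and 290 in the Controls, or 3.46 and 5.23 TPM in the Smad4 Knockouts, against 4.04 and 3.51 TPM in the Controls. In counts and in TPM the highest and the lowest value both belonged to the Smad4 Knockouts. In CPM it was at 3.24 and 4.91 in the Smad4 Knockouts, against 4.29 and 3.13 in the Controls. The groups overlapped in each measure (log2 fold change 0.14, SE 0.30, edgeR adjusted p = 0.995). Krt4 stood at 44.4 and 35.8 times the TPM of Krt13 in the Smad4 Knockouts, against 21.0 and 19.96 times in the Controls.

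Krt5 and Krt17 mark basal cells of stratified epithelia, and both were close to absent. Krt5 (type II, gene ID 110308, chr15:101707069-101712905) had 98 and 77 counts in the Smad4 Knockouts, against 38 and 62 in the Controls, or 0.874 and 0.571 TPM in the Smad4 Knockouts, against 0.272 and 0.502 TPM in the Controls. The Smad4 Knockouts lay above the Controls in both libraries, with a log2 fold change of 0.87 (SE 0.50, edgeR adjusted p = 0.85), and it was 0.53 without Control 1 and 1.31 without Control 2. Krt17 (type I, gene ID 16667, chr11:100256215-100261029), also induced in injured skin, had 0 counts in both Smad4 Knockouts, against 14 and 0 counts in the Controls. Where a library has 0 counts, its true level may reach that of 3 counts, and Krt17 did not pass the filter on low counts, so no fold change is given.

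The 4 stratified members summed to 158 and 193 TPM in the Smad4 Knockouts, against 89.1 and 74.1 TPM in the Controls. Krt4 alone gave 97.3% and 97.0% of that sum in the Smad4 Knockouts, and 95.01% and 94.6% in the Controls. The stratified share of the 10 members was 1.55% and 1.95% of their TPM in the Smad4 Knockouts, against 0.897% and 0.778% in the Controls. The groups did not overlap in the sum or in the share, and nearly the whole sum in each library was Krt4.

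Among simple keratins, Krt8 and Krt18 form the founding pair, the first keratins made in the embryo. Krt8 (type II, gene ID 16691, chr15:101996711-102004342) was at 3294 and 3155 TPM in the Smad4 Knockouts, against 3050 and 3004 TPM in the Controls. In TPM both Smad4 Knockouts stood above both Controls, but in CPM, at 3480 and 3582 in the Smad4 Knockouts against 3538 and 3260 in the Controls, the groups overlapped (log2 fold change 0.06, SE 0.09, edgeR adjusted p = 0.986). Its pseudogene Krt8-ps was at 32.1 and 30.95 TPM in the Smad4 Knockouts, against 30.9 and 35.3 TPM in the Controls. Krt18 (type I, gene ID 16668, chr15:102028216-102032026) was at 2948 and 2569 TPM in the Smad4 Knockouts, against 3009 and 2786 TPM in the Controls, and the groups overlapped (log2 fold change -0.11, SE 0.11, edgeR adjusted p = 0.95). The ratio of Krt8 to Krt18 in TPM was 1.12 and 1.23 in the Smad4 Knockouts, against 1.01 and 1.08 in the Controls, highest in Smad4 Knockout 2.

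Krt19 and Krt7 are keratins of ducts and glands, and Krt19 is the keratin that lacks most of the tail. Krt19 (type I, gene ID 16669, chr11:100140810-100145926) was at 2109 and 2345 TPM in the Smad4 Knockouts, against 1959 and 1928 TPM in the Controls. The Smad4 Knockouts were higher in both libraries in TPM, while in CPM, at 1704 and 2037 in the Smad4 Knockouts against 1738 and 1599 in the Controls, the groups overlapped (log2 fold change 0.17, SE 0.12, edgeR adjusted p = 0.893). The log2 fold change of Krt19 was 0.04 without Smad4 Knockout 2. Krt7 (type II, gene ID 110310, chr15:101412403-101427806) was at 1642 and 1591 TPM in the Smad4 Knockouts, against 1762 and 1672 TPM in the Controls. It was the 1 tested member whose Smad4 Knockout libraries both lay below both Controls in CPM, beside 18.6% of all genes, and Krt4 and Krt5 were the 2 that lay above, beside 18.2%. The log2 fold change of Krt7 was -0.12 (SE 0.10, edgeR adjusted p = 0.931), and the nearest libraries of the 2 groups stood at a ratio of 0.996 in CPM.

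Krt20 and Krt23 are further type I simple keratins, of which Krt20 marks differentiated surface cells of the stomach and intestine. Krt20 (gene ID 66809, chr11:99428385-99438153) had 813 and 723 counts in the Smad4 Knockouts, against 1138 and 775 in the Controls, or 8.24 and 6.09 TPM in the Smad4 Knockouts, against 9.28 and 7.14 TPM in the Controls. Krt23 (gene ID 94179, chr11:99477973-99493120) was at 47.9 and 50.7 TPM in the Smad4 Knockouts, against 63.5 and 48.1 TPM in the Controls. In both genes Control 1 was the highest library and the groups overlapped. The log2 fold changes were -0.245 for Krt20 (SE 0.23, edgeR adjusted p = 0.947) and -0.22 for Krt23 (SE 0.18, edgeR adjusted p = 0.935), and without Control 1 they were 0.01 and 0.05.

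The summed transcripts of the 2 keratin types were nearly equal in each library. All 28 type I keratins summed to 5123 and 4984 TPM in the Smad4 Knockouts, against 5050 and 4782 TPM in the Controls, and all 25 type II keratins to 5143 and 4992 TPM in the Smad4 Knockouts, against 4941 and 4802 TPM in the Controls. The ratio of type I to type II was 0.996 and 0.998 in the Smad4 Knockouts, against 1.02 and 0.996 in the Controls. Within each type the shares were unequal. Krt7 was at 0.499 and 0.504 of the TPM of Krt8 in the Smad4 Knockouts, against 0.578 and 0.556 in the Controls, and Krt19 was at 0.715 and 0.913 of the TPM of Krt18 in the Smad4 Knockouts, against 0.651 and 0.692 in the Controls. Krt4 gave 2.99% and 3.75% of type II TPM in the Smad4 Knockouts, against 1.71% and 1.46% in the Controls. With 2 libraries against 2 an exact two-sided permutation test cannot give a p below 0.333, so these ratios are given without a test.

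**Figure D3:**
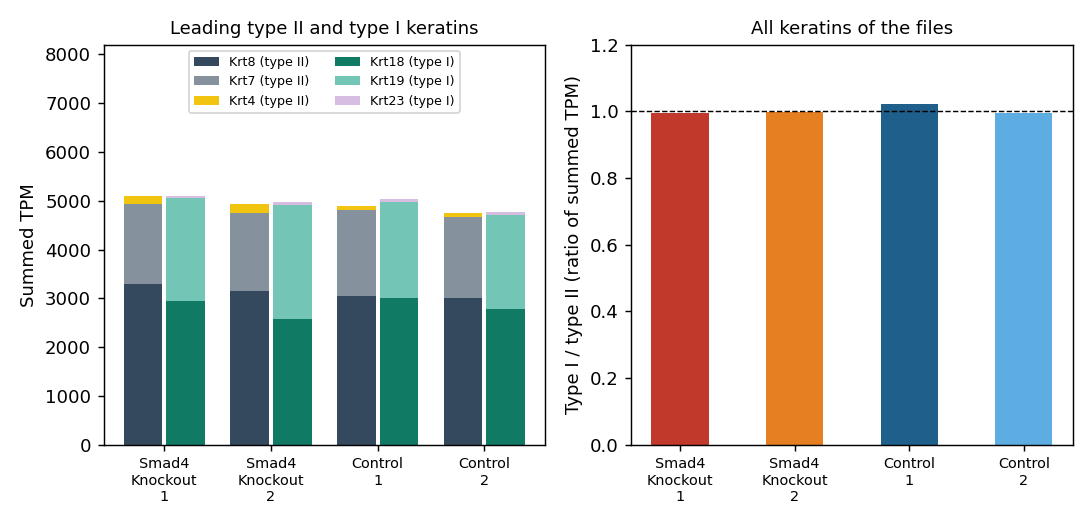
Left, summed TPM of the leading type II (Krt8, Krt7 and Krt4) and type I (Krt18, Krt19 and Krt23) keratins in each library, as stacked bars with the Smad4 Knockouts first. Right, the ratio of summed type I to summed type II TPM over all 53 keratins, which lies between 0.996 and 1.02 in the 4 libraries around the dashed line at 1.

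The other 43 keratin genes were low, with sums of 58.9 and 65.9 TPM in the Smad4 Knockouts, against 49.2 and 64.4 TPM in the Controls. A total of 16 of them had 0 counts in all libraries and 18 passed the filter. Of these 18, 13 had a log2 fold change above 0 and 5 below, beside 49.5% of all genes above 0, with a median of 0.31. In edgeR and in DESeq2 0 were called, where DESeq2 called 0.53% of all genes higher and 0.171% lower. At an unadjusted edgeR p under 0.05 there were 0, beside 6.36% of all genes. The median rested on Smad4 Knockout 2, without which it was -0.03 over the other keratins that passed the filter in that fit. Krt80, a type II keratin of many epithelia, was the most abundant at 35.5 and 28.7 TPM in the Smad4 Knockouts, against 26.3 and 39.4 TPM in the Controls, followed by Krt79 at 8.02 and 14.7 TPM in the Smad4 Knockouts, against 9.43 and 9.25 TPM in the Controls. Krt6a, a type II keratin of stressed stratified epithelia, was at 4.71 and 6.57 TPM in the Smad4 Knockouts, against 3.95 and 2.93 TPM in the Controls (log2 fold change 0.68, SE 0.29, edgeR adjusted p = 0.801). Its frequent partner Krt16 was at 1.90 and 1.49 TPM in the Smad4 Knockouts, against 2.47 and 2.80 TPM in the Controls (log2 fold change -0.67, SE 0.28). Krt90 was at 1.49 and 4.08 TPM in the Smad4 Knockouts, against 1.46 and 1.06 TPM in the Controls, and Krt15, a basal keratin, at 0.599 and 2.32 TPM in the Smad4 Knockouts, against 0.433 and 2.25 TPM in the Controls, and the Krt15 values spread more within each group than between the group means.

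**Figure D4:**
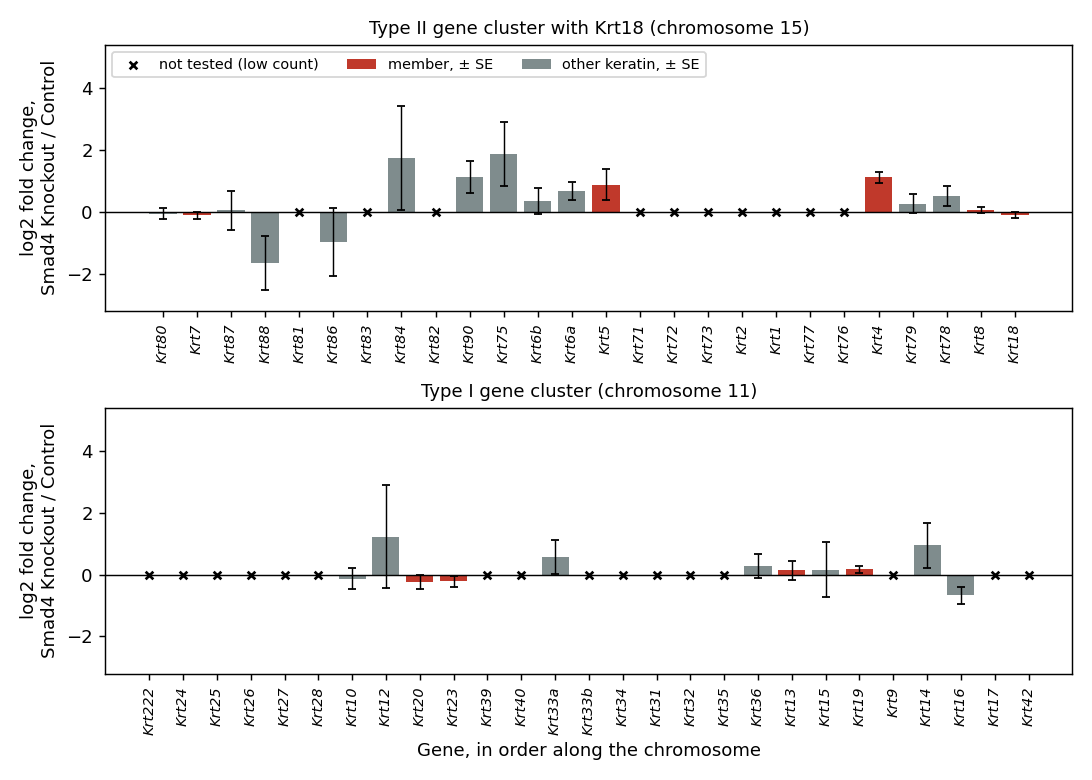
Log2 fold change, Smad4 Knockout over Control, with SE, of the keratin genes in their order along the clusters on chromosome 15 (26 genes, 16 tested) and chromosome 11 (27 genes, 11 tested). Krt4 (1.11) stands between untested Krt76 and Krt79 (0.26), and the widest error bars are those of Krt84 and Krt12, each with a mean under 1 TPM.

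The nearest neighbours of Krt4 in its cluster were silent or had smaller fold changes. Krt1, Krt77 and Krt76, on the side of lower coordinates, were listed at 0 TPM in all libraries. Krt79 had a log2 fold change of 0.26 (SE 0.32), Krt78 of 0.50 (SE 0.33) and Krt8 of 0.06 (SE 0.09). Farther off in the cluster, Krt75 (1.86, SE 1.04), Krt84 (1.73, SE 1.68) and Krt90 (1.12, SE 0.53) had larger log2 fold changes than Krt4 (1.11). Their mean levels were 0.317, 0.0627 and 2.02 TPM, against 124 TPM for Krt4. Krt75 had 15 and 182 counts in the Smad4 Knockouts, against 29 and 25 in the Controls. Krt84 had 10 and 19 counts in the Smad4 Knockouts, against 9 and 0 in the Controls. With 1 library left out, Krt75 ranged from -0.69 to 2.72, Krt84 from 0.75 to 6.86 and Krt90 from 0.16 to 1.70. The range of Krt4 was from 0.91 to 1.30. Of 16 tested genes in this cluster 11 had a log2 fold change above 0, and 8 of the 16 had a mean under 1 TPM. In the type I cluster 7 of 11 tested genes were above 0. Over all genes tested 49.5% were above 0.

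Squamous genes other than keratins were split in direction. Of 17 tested genes of squamous epithelium 9 had a log2 fold change above 0 and 8 below, with a median of 0.11. With 1 library left out the median lay between -0.03 and 0.06, over the list genes that passed the filter in each such fit. Of the 17, 4 had an unadjusted p under 0.05 (1 higher and 3 lower), beside 6.36% of all genes. In edgeR 0 were called and in DESeq2 1, where 0.53% of all genes were called higher. The gene called in DESeq2 was Crnn, which encodes cornulin of oesophageal and forestomach epithelium, at 1.68 and 7.59 TPM in the Smad4 Knockouts, against 0.588 and 0.323 TPM in the Controls (log2 fold change 3.31, SE 0.80, DESeq2 adjusted p = 0.00165). Leaving out Smad4 Knockout 2 gave 1.79, and leaving out Smad4 Knockout 1 gave 4.04, which passed in edgeR (adjusted p = 0.0114). Sprr1a, a precursor of the cornified envelope, was at 136 and 133 TPM in the Smad4 Knockouts, against 163 and 170 TPM in the Controls (log2 fold change -0.35, SE 0.10), and Lor, the envelope protein loricrin, at 1.64 and 1.38 TPM in the Smad4 Knockouts, against 2.48 and 2.60 TPM in the Controls (-0.79, SE 0.26). Perp, a p53 target in desmosomes, was at 178 and 163 TPM in the Smad4 Knockouts, against 173 and 180 TPM in the Controls, and Tgm1, which crosslinks the envelope, at 64.55 and 75.8 TPM in the Smad4 Knockouts, against 63.2 and 59.99 TPM in the Controls. Trp63, the regulator of basal squamous cells, was at 0.0565 and 0.0440 TPM in the Smad4 Knockouts, against 0.0296 and 0 TPM in the Controls. Krtdap, Calml3, Cnfn and Dsc3 had 0 counts in all libraries.

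Genes of the glandular stomach were measured beside the keratins as a check of the tissue. Epcam, an epithelial surface protein, was at 804 and 678 TPM in the Smad4 Knockouts, against 827 and 781 TPM in the Controls. Tff1, a peptide of surface mucous cells, was at 113 and 204 TPM in the Smad4 Knockouts, against 80.3 and 55.5 TPM in the Controls (log2 fold change 1.19, SE 0.35), and Tff2 at 113 and 65.03 TPM in the Smad4 Knockouts, against 48.65 and 37.45 TPM in the Controls (0.99, SE 0.27). Gkn1, a gastrokine of surface cells, was at 8.20 and 26.03 TPM in the Smad4 Knockouts, against 3.75 and 3.45 TPM in the Controls (2.24, SE 0.56). For Gkn1, leaving out Smad4 Knockout 2 gave 1.11, and leaving out Smad4 Knockout 1 gave 2.86, which passed in edgeR (adjusted p = 0.00439). With all 4 libraries these 3 genes passed in DESeq2, which called 0.53% of all genes higher. In edgeR 0 genes of the list passed. At an unadjusted edgeR p under 0.05 there were 5 (4 higher and 1 lower), beside 3.33% of all genes higher and 3.04% lower. The lower one was Muc6, near the floor at 0 counts in both Smad4 Knockouts, against 16 and 12 counts in the Controls. Of 11 tested genes of the list 7 had a log2 fold change above 0 and 4 below, with a median of 0.99. That median was 0.03 without Smad4 Knockout 2. Pgc, Cblif, Atp4b and Gast, of chief, parietal and gastrin cells, had 0 counts in all libraries, while Atp4a, the other proton pump subunit of parietal cells, was at 1.76 and 1.61 TPM in the Smad4 Knockouts, against 1.74 and 1.91 TPM in the Controls. Muc5ac, the surface cell mucin, was at most at 0.347 TPM, Gkn2 at 2.45 TPM, Muc6 at 0.0263 TPM and Chga at 0.0414 TPM. Gkn3 was at 33.6 and 118.7 TPM in the Smad4 Knockouts, against 43.0 and 24.7 TPM in the Controls. Sox2 was at 19.2 and 19.9 TPM in the Smad4 Knockouts, against 19.8 and 24.4 TPM in the Controls. Pdx1 was at 7.25 and 19.1 TPM in the Smad4 Knockouts, against 5.65 and 3.21 TPM in the Controls. Genes of this list were thus in part expressed and in part at or near 0, and the label of gastric organoid was taken as given.

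Genes for proteins that tie keratin filaments to junctions were split in direction too. Of 13 linkers, all tested, 5 had a log2 fold change above 0 and 8 below, with a median of -0.09. In edgeR and in DESeq2 0 were called, and 1, Pkp1, had an unadjusted p under 0.05, beside 6.36% of all genes. Plec, which encodes plectin, the linker of filaments to hemidesmosomes and to other cytoskeletal fibres, was at 63.2 and 45.9 TPM in the Smad4 Knockouts, against 59.2 and 76.4 TPM in the Controls (log2 fold change -0.35, SE 0.16, edgeR adjusted p = 0.813), and leaving out Smad4 Knockout 2 gave -0.17. Pkp1, a desmosomal plakophilin of stratified epithelia, was at 9.32 and 7.23 TPM in the Smad4 Knockouts, against 11.5 and 11.1 TPM in the Controls (-0.49, SE 0.14). Itga6, the integrin chain of hemidesmosomes, was at 129 and 132 TPM in the Smad4 Knockouts, against 110 and 115 TPM in the Controls (0.18, SE 0.10), and Jup, plakoglobin, at 92.03 and 85.6 TPM in the Smad4 Knockouts, against 86.7 and 107 TPM in the Controls.

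Of the other intermediate filament genes, Lmna and Lmnb1, which encode lamins of the nucleus, were the most abundant. Lmna was at 254 and 232 TPM in the Smad4 Knockouts, against 244 and 251 TPM in the Controls, and Lmnb1 at 79.3 and 80.1 TPM in the Smad4 Knockouts, against 81.9 and 80.3 TPM in the Controls. Nes, which encodes nestin, was at 26.3 and 22.2 TPM in the Smad4 Knockouts, against 32.8 and 34.1 TPM in the Controls (log2 fold change -0.50, SE 0.10). Nes passed in DESeq2 (adjusted p = 0.0127), which called 0.171% of all genes lower, and did not pass in edgeR. Vim, which encodes vimentin of mesenchymal cells, was at 4.80 and 3.54 TPM in the Smad4 Knockouts, against 3.22 and 4.46 TPM in the Controls, and is named here after its values were seen. Synm, which encodes synemin, was below 0.3 TPM in all libraries. Of 12 tested genes of this list 6 had a log2 fold change above 0 and 6 below. The median was 0.01 (from -0.08 to 0.06 with 1 library left out). In edgeR 0 were called, and 1, Nes, had an unadjusted p under 0.05, beside 6.36% of all genes.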

How the data were processed

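Per the labels' protocols, libraries came from total RNA, prepared with a stranded TruSeq kit (Gold). Tools in the submitters' processing notes are StringTie 2.1.3b, HISAT2 2.1.0, bcl2fastq 2.20.0 and Trimmomatic, with build mm10; the strand setting and the counting step were not stated there. The authors deposited, per the file headers, 3 values a gene: TPM, FPKM and a count. The deposited count is whole in every row and was handled here as an estimated count; FPKM was left aside, as was 1 FPKM column of another sample. For 26 genes a date stood in place of the symbol, which was restored from the gene ID. Column names of Control 2 carry an added 2.

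Groups follow the genotype label, and replicate numbers follow sample order. The fit used edgeR 4.0.16 in R 4.3.3 on the counts (quasi-likelihood, TMM, filterByExpr with minimum count 10). Benjamini-Hochberg adjustment ran over 18115 genes, with a threshold of 0.05. Simulated counts, with changes larger than that of Krt4, served to check the sign and size of fold changes and set no requirement on calls. SE is the size of the log2 fold change over the square root of F. CPM uses TMM-scaled library sizes. Alternatives were RLE factors, no filter, DESeq2 1.42.0, limma 3.58.1 on log2(TPM + 1) and log2(TPM + 0.1), and leaving out each library. Members and lists were chosen with earlier results of these data known. All members are named, with the 6 most abundant other keratins and, from each further list, the 3 genes highest in level and the 3 with the smallest p; others, such as Trp63, Muc5ac and the genes at 0, were named after their values were seen. A few further items are not reported here.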

Additional observations from a re-analysis of the deposited data

How the results depend on the processing

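DESeq2 called 96 genes higher and 31 lower, with 1 member, Krt4, among those higher, against 0 in edgeR. With 1 library left out, edgeR called from 0 to 48 genes higher, from 0 to 44 lower, and from 0 to 1 members higher. RLE factors, no filter and limma on TPM with either pseudocount called 0 genes. Krt4 kept its direction under 9 of 9 alternatives (log2 fold change from 0.91 to 1.30, adjusted p from 3.21e-06 to 1.0). Among the members, the targeted genes and the list genes named for level or p, the log2 fold change crossed 0 with 1 library left out for Krt8 (-0.004 to 0.117), Krt13 (-0.18 to 0.40), Krt20 (-0.464 to 0.014), Krt23 (-0.446 to 0.054), Krt15 (-1.19 to 1.70), Krt79 (-0.29 to 0.67), Krt80 (-0.29 to 0.20), Lmnb1 (-0.123 to 0.005), Pecam1 (-1.15 to 0.67), Synm (-0.25 to 0.78), Tek (-8.11 to 7.01), Tgm1 (-0.012 to 0.306) and Trp53 (-0.462 to 0.054). Outside that choice, Vim (-0.09 to 0.28), Krt75 (-0.69 to 2.72) and Gkn3 (-0.09 to 1.81) crossed 0 too. The median over the tested members was 0.06, and from -0.07 to 0.12 with 1 library left out. The cause was not tested. Krt5 was below the TPM minimum of the limma fits. No paired analysis was possible because the labels give no replicate numbers that pair the lines. Depth limits Krt5 and Krt17, at 98 counts or fewer per library.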
